A study of Mus musculus with 2 samples.

Results

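Meg3, Peg3 and Cdkn1c are genes of which a cell normally reads 1 parental copy, and they are described here in single skeletal muscle stem cells of mouse. They were chosen by name and made up 3 of the 21216 gene identifiers counted, with a row for each of the 3 in the tables of both plates. Culture lasted 96 h, with 25 mM glucose (called high glucose), 5 mM glucose (low glucose) or 10 mM galactose as the sugar, and the cultured cells were set against freshly isolated ones, which the labels call quiescent. All 3 media contained 1 mM sodium pyruvate, fetal bovine and horse serum, chick embryo extract and bFGF. Cells were sorted into wells, and polyadenylated RNA was tagged per well by a modified CEL-Seq2 protocol, which counts the end of each transcript. No strain, age, sex or number of animals is stated by these sources. Each condition was 1 group of wells on 1 plate, so differences between conditions had no check by replicates and were not tested.

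Imprinting is the silencing of 1 parental copy of a gene by DNA methylation laid down in the germ line. Meg3 is a long noncoding RNA read from the maternal copy of the Dlk1-Dio3 cluster. Peg3 is a zinc finger protein read from the paternal copy and used as a marker of stem and progenitor cells in several tissues. Cdkn1c encodes p57, an inhibitor of cyclin-dependent kinases read from the maternal copy, which holds cells out of the division cycle. The counts do not separate the parental copies, so they give the level of each gene and not its imprint.

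Meg3 (ENSMUSG00000021268) lies at chr12:109541001-109571726 on the plus strand, Peg3 (ENSMUSG00000002265) at chr7:6703892-6730431 on the minus strand, and Cdkn1c (ENSMUSG00000037664) at chr7:143458339-143461050 on the minus strand, in GRCm38 with GENCODE release M21. The sources used do not name the build behind the counts. Meg3 overlaps the small RNA genes Mir770, Mir1906-1, Gm27596 and Gm27300, which had no row, and the antisense gene Gm26906, which had 2 counts in quiescent cells. Cdkn1c overlaps the antisense gene Gm44732, which had no row. Whether counting used the strand is not given, so reads of an antisense partner could not be told apart.

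RefSeq promoter sequences (GRCm38.p6) were matched for Meg3 and Peg3, and they are shown because both genes had lower CPM in all 3 cultures than in quiescent cells. The Meg3 stretch is the 250 bases before the start, chr12:109540746-109540995 on the plus strand. The first Peg3 stretch is chr7:6730432-6730577 on the minus strand, the 146 bases there that no annotated exon covers. The second Peg3 stretch, of 30 bases at chr7:6730579-6730608 on the minus strand, lies inside the first exon of Usp29, the neighbour read in the opposite direction. Capitals mark matches to TATAAA or TGACGTCA.
Meg3: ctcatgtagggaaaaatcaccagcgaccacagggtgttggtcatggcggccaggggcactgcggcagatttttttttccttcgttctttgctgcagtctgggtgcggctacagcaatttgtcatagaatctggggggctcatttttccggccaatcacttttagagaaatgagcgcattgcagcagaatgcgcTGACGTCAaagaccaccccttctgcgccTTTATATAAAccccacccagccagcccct
Peg3 before the start: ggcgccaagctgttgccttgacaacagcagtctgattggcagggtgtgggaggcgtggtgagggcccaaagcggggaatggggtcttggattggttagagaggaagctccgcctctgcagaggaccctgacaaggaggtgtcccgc
Peg3 around the match: actgactccgtTGACGTCAactccgtgcct

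The Meg3 window held TATAAA at positions -25 to -20 and, read on the other strand, at -29 to -24, overlapping it. Both windows held TGACGTCA, the palindrome known as the cAMP response element, at -57 to -50 in Meg3 and at -178 to -171 in Peg3. Of 32851 RefSeq promoters of 300 bases (250 before the start and 50 after it), 13.6% held TATAAA and 1.79% held TGACGTCA on either strand. The second motif was added to the search after the sequences had been read. Neither of these windows held the E-box CANNTG, found in 72.3% of promoters, the GC box GGGCGG, found in 35.7%, or the Yy1 core GCCATNTT, found in 6.05%. A second Meg3 entry, which starts within the gene, held an E-box at -172 to -167 and none of the other motifs. Each of the printed genes' windows had 13 CG dinucleotides, against a median of 7, and 62.1% of promoters had fewer. These matches describe letters only.

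After 1 high glucose well with too few counts was left out, 113 high glucose, 120 low glucose, 121 galactose and 102 quiescent wells remained. The median well had 6747 gene counts in high glucose, 13371 in low glucose, 14496 in galactose and 2536 in quiescent cells, and the pools of all wells held 887611, 1734279, 2035682 and 284109 counts in the same order. Levels are given as CPM, counts scaled to the total of the pool. Plate 1 held high glucose and quiescent wells, and plate 2 held low glucose and galactose wells, so in any comparison across plates the plate and the condition cannot be told apart. Wells filled 6 plate rows per condition, and the spread over rows is a technical one. Gene counts per ERCC spike-in count, a synthetic RNA added to each well, were 60.2 in high glucose, 50.4 in low glucose, 51.9 in galactose and 19.6 in quiescent cells.

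The identity of the wells was read from marker lists. All 12 muscle stem cell markers were detected in every condition, and they summed to 2079 CPM in high glucose, 2142 in low glucose, 2169 in galactose and 6631 in quiescent cells. The quiescent pool had 2446 CPM of Myod1, a factor of activated myoblasts, beside 120 CPM of Pax7, the factor that defines muscle stem cells. Markers of fibro-adipogenic cells, of which 7 of 10 were analysed, summed to 143 CPM in high glucose, 40.9 in low glucose, 32.4 in galactose and 1151 in quiescent cells, over rows from 645 to 1593 in the last. Dcn and Clec3b of that list were at 0 in high glucose and quiescent cells. Smooth muscle and pericyte markers summed to 231, 75.0, 62.9 and 616 CPM in the same order, and endothelial markers to 55.2, 8.65, 7.86 and 134 CPM, with Cldn5 at 0 in quiescent cells. Of the immune, glial, mature myofibre and tenocyte lists, only 3 of 8, 2 of 5, 4 of 8 and 2 of 5 markers were analysed. Each list stayed at or under 31.7 CPM in every pool. No well had 3 or more immune or myofibre markers, a number that the glial and tenocyte lists could not reach. The part of these other markers in the results was not tested, beyond leaving out wells as given below.

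The 3 genes did not share 1 pattern. Meg3 was abundant in quiescent cells and nearly gone from the cultures on plate 2. Peg3 had its highest CPM in quiescent cells but stayed readily detected in all 3 cultures. Cdkn1c was barely detected anywhere, so its place among genes of quiescent cells rests on 7 counts.

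Meg3 had 29 counts in high glucose, 12 in low glucose, 8 in galactose and 172 in quiescent cells. Its level was 32.7 CPM in high glucose (exact Poisson 95% interval 21.9 to 46.9), 6.92 CPM in low glucose (3.58 to 12.1), 3.93 CPM in galactose (1.70 to 7.74) and 605 CPM in quiescent cells (518 to 703). These intervals, like all others here, cover counting error only. Over plate rows Meg3 ranged from 16.7 to 84.8 CPM in high glucose, between 2.71 and 12.2 in low glucose, between 0 and 10.6 in galactose and between 394 and 950 in quiescent cells. The quiescent rows lay above all cultured rows and the high glucose rows above all those of plate 2, while low glucose and galactose rows overlapped, with no Meg3 count in 3 galactose rows.

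Peg3 had 169 counts in high glucose, 190 in low glucose, 282 in galactose and 216 in quiescent cells. Its level was 190.4 CPM in high glucose (163 to 221), 109.6 CPM in low glucose (94.5 to 126), 139 CPM in galactose (123 to 156) and 760.3 CPM in quiescent cells (662 to 869). Plate rows ranged from 89.8 to 361 CPM in high glucose, between 65.3 and 126 in low glucose, between 77.2 and 244 in galactose and between 607 and 852 in quiescent cells. The quiescent rows stood above every cultured row, and the rows of the 3 cultures overlapped one another. Quiescent rows differed by less for Peg3 than for Meg3.

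Cdkn1c had 1 count in high glucose, 7 in low glucose, 13 in galactose and 7 in quiescent cells. Its level was 1.13 CPM in high glucose (0.0285 to 6.28), 4.04 CPM in low glucose (1.62 to 8.32), 6.39 CPM in galactose (3.40 to 10.9) and 24.6 CPM in quiescent cells (9.91 to 50.8). The quiescent interval overlaps that of galactose, and 3 of the 7 quiescent counts fell in 1 plate row, at 79.2 CPM. High glucose had no count in 5 of its 6 rows. The plot of levels by plate row shows these ranges beside the pools.

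**Figure D1:**
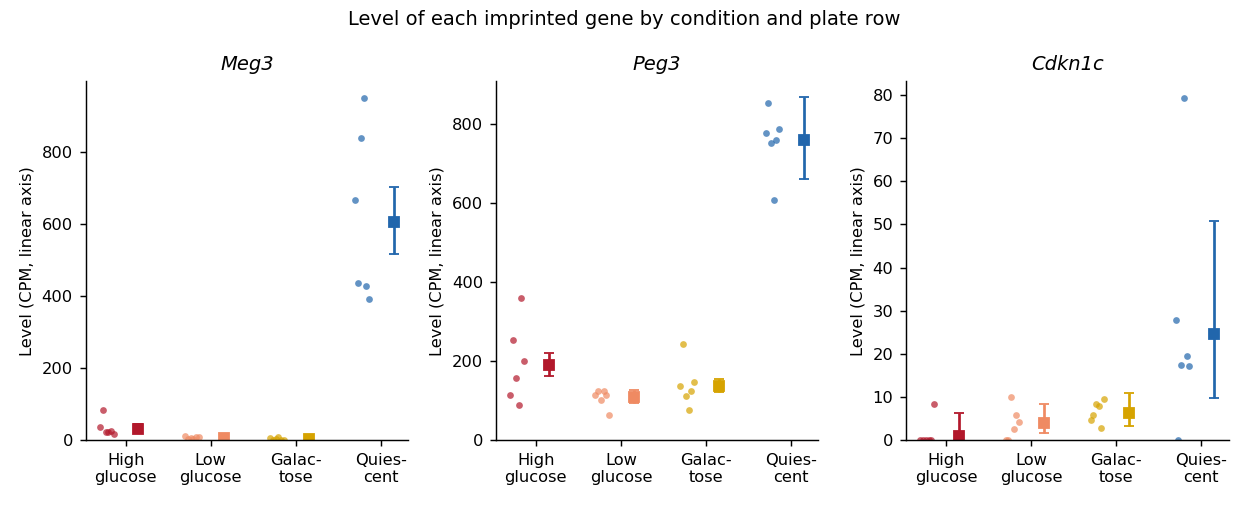
Level of Meg3, Peg3 and Cdkn1c in CPM (linear axes, each from 0) in high glucose, low glucose, galactose and quiescent wells. Small points are the 6 plate rows of a condition, and squares with bars are the pool and its exact Poisson 95% interval. Quiescent rows of Meg3 (394 to 950 CPM) and Peg3 (607 to 852 CPM) stand above all cultured rows, and Cdkn1c stays under 80 CPM in every row.

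For each pair of pools the ratio of CPM was taken with its exact conditional (Clopper-Pearson) 95% interval. A gene was called higher or lower at a ratio of at least 1.5 either way with an interval that leaves out 1, and was compared where the 2 pools averaged 10 CPM or more. On plate 1, in high glucose over quiescent cells, 13.4% of 8882 genes were called lower and 21.7% higher, with a median log2 ratio of 0.34. All 3 genes were among those called lower. Under call rules used as alternatives for the lists, 18.2% of the 3848 genes with a mean of at least 50 CPM were called lower and 28.7% higher, and 27.1% of the 8882 were higher by 2-fold with no interval. Cdkn1c reached the minimum only through its quiescent level, so its ratio was bound to be low.

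In high glucose the Meg3 ratio over quiescent cells was 0.0540 (0.0351 to 0.0803), the 83rd lowest of the 8882 genes compared. It was the 16th lowest of the 3848 genes with a mean of at least 50 CPM, a mean it reached only through its quiescent level. The Peg3 ratio was 0.25 (0.204 to 0.308), the 496th lowest of the 8882 genes and the 181st lowest of the 3848. The Cdkn1c ratio was 0.0457 with an interval of 0.00101 to 0.356, since it sets 1 count against 7. By counting error, Meg3 stood farther below its quiescent level than Peg3 did, as the 2 intervals are apart.

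Scaled by spike-in counts instead of gene counts, most genes were higher in high glucose than in quiescent cells: the median log2 ratio was 1.94, 2.54% of genes were called lower and 77.6% higher. Meg3 remained lower, with 1.97 counts per 1000 spike-in counts in high glucose and 11.9 in quiescent cells, a ratio of 0.166 (0.108 to 0.246). Peg3 had 11.5 counts per 1000 spike-in counts in high glucose and 14.9 in quiescent cells, and its ratio of 0.768 (0.625 to 0.944) was not called. Per well, Peg3 had 1.5 counts in high glucose, 1.58 in low glucose, 2.33 in galactose and 2.12 in quiescent cells. Meg3 had 0.257, 0.1, 0.0661 and 1.69 counts per well in the same order. So Peg3 was called lower in high glucose by CPM and not by spike-in counts, whereas Meg3 was called lower by both. Cdkn1c was not called per spike-in, at 0.140 (0.00311 to 1.09).

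Against quiescent cells, the cultures of plate 2 were also lower in the CPM of all 3 genes. In low glucose the ratios were 0.0114 for Meg3 (0.00579 to 0.0205), 0.144 for Peg3 (0.118 to 0.176) and 0.164 for Cdkn1c (0.0490 to 0.547), with 16% of 8769 genes called lower. In galactose they were 0.00649 for Meg3 (0.00276 to 0.0131), 0.182 for Peg3 (0.152 to 0.219) and 0.259 for Cdkn1c (0.0961 to 0.767), with 16.2% of 8800 genes called lower. The 3 comparisons share the quiescent pool. In both, Meg3 and Cdkn1c were under 10 CPM in the culture and reached the minimum only through their quiescent level. Their ratios there were bound to be low, as that of Cdkn1c was in high glucose. Per spike-in count, where 5.53% of genes were called lower in each of the 2 comparisons, Meg3 and Peg3 were still called lower and Cdkn1c was not. Peg3 had 5.52 counts per 1000 spike-in counts in low glucose and 7.19 in galactose, ratios of 0.370 (0.303 to 0.452) and 0.482 (0.402 to 0.578) over quiescent cells.

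**Figure D2:**
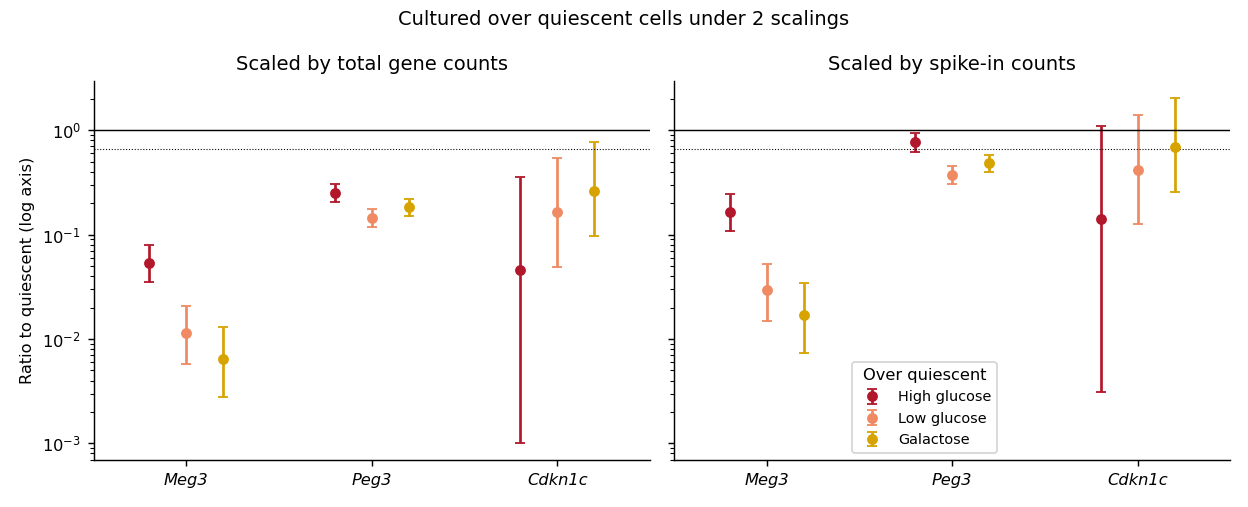
Ratio of high glucose, low glucose and galactose pools to the quiescent pool for the 3 genes (log axis), scaled by total gene counts at left and by spike-in counts at right. Bars are exact 95% intervals of counting error, the solid line is a ratio of 1 and the dotted line the limit for a lower call. Meg3 stays below the dotted line in both panels, whereas Peg3 in high glucose moves to 0.768 per spike-in count and the bars of Cdkn1c cross 1 there.

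Galactose set against low glucose is the comparison of sugars made within 1 plate, and it gave no call for any of the 3 genes. Peg3 was 1.26 times its low glucose level in galactose (1.05 to 1.53), under the 1.5-fold limit, where 1.25% of 8689 genes were called lower and 1.53% higher. The Meg3 ratio was 0.568 (0.201 to 1.51) and the Cdkn1c ratio 1.58 (0.587 to 4.68). Both genes lay under the mean of 10 CPM, and their intervals include a difference of 1.5-fold either way. Under the alternative rules, 0.175% of 3997 genes with a mean of at least 50 CPM were called lower, 0.357% of the 8689 were lower by 2-fold, and 2.05% were called higher per spike-in count. The galactose surplus of Peg3 counts sat in few rows: without row H, which had 244 CPM, the ratio was 1.07 (0.876 to 1.32).

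Across plates, the low glucose level of Meg3 was 0.212 of that in high glucose (0.0984 to 0.428) and its galactose level 0.120 (0.0475 to 0.270). Meg3 was called lower in both, with 10.7% of 8852 genes called lower in low glucose and 12.1% of 8894 in galactose. It was under 10 CPM on plate 2 and reached the minimum only through its high glucose level, so both ratios were bound to be low. For Peg3 the low glucose ratio was 0.575 (0.465 to 0.712), called lower, and the galactose ratio 0.728 (0.599 to 0.886), not called. Per spike-in count, where 20.6% of genes were called lower in galactose, its galactose ratio was 0.627 (0.516 to 0.763) and was called lower. The Peg3 call in low glucose rested on 1 plate row: without high glucose row K, which had 361 CPM, the low glucose ratio was 0.714 (0.562 to 0.910). Cdkn1c had wide intervals, 0.460 to 161 for low glucose and 0.851 to 241 for galactose, with a single high glucose count as the base.

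Ordered by level, Meg3 ran from quiescent through high glucose to low glucose and galactose, and the last pair did not differ beyond counting error. Peg3 ran from quiescent through high glucose and galactose to low glucose, with neighbouring cultures under 1.5-fold apart. Cdkn1c ran from quiescent through galactose and low glucose to high glucose, with no neighbouring cultures called apart.

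Among single cells, Meg3 was found in 21 of 113 high glucose wells (18.6%), 12 of 120 low glucose wells (10%), 6 of 121 galactose wells (4.96%) and 66 of 102 quiescent wells (64.7%). The quiescent wells had the fewest counts in all, so each well was also reduced to 1000 gene counts, averaged over all ways of drawing them. Meg3 was then found in 4.57% of high glucose wells, 1.15% of low glucose wells, 0.648% of galactose wells and 39.2% of quiescent wells (exact binomial 95% interval 29.7 to 49.4). The quiescent share lay above the upper bounds of the cultures, which were 10.3%, 5.07% and 4.21%. No population lacking these genes was on the plates, so the share that free RNA would give is unknown.

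Peg3 showed how far depth sets such shares. Before thinning it was found in 61.9% of high glucose wells, 70% of low glucose wells, 69.4% of galactose wells and 80.4% of quiescent wells. At 1000 counts per well the shares were 18.4%, 11.4%, 11.8% and 51.6% in the same order, with an interval of 41.4 to 61.6% in quiescent cells. Cdkn1c was found in 1 high glucose well, 7 low glucose wells, 11 galactose wells and 6 quiescent wells. At 1000 counts its shares were 0.184%, 0.587%, 1.01% and 2.11%, all under the limit of 2.48 to 2.94% that no well with a count would allow, so no order can be read from them.

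The counts per well differed in shape between Meg3 and Peg3. In quiescent cells, 25 of 102 wells had 3 or more Meg3 counts, with at most 11 in a well, whereas 1 high glucose well had as many as 3, and no well of plate 2 did. Peg3 reached 17 counts in a high glucose well, 13 in a low glucose well, 33 in a galactose well and 9 in a quiescent well. In high glucose, 12 wells held 51.5% of all Peg3 counts, in low glucose 12 wells held 38.9% and in galactose 13 wells held 47.2%, against 31.5% in 11 quiescent wells. High glucose and galactose thus had the most uneven shares, with many wells at 0 or 1 and a few high ones.

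**Figure D3:**
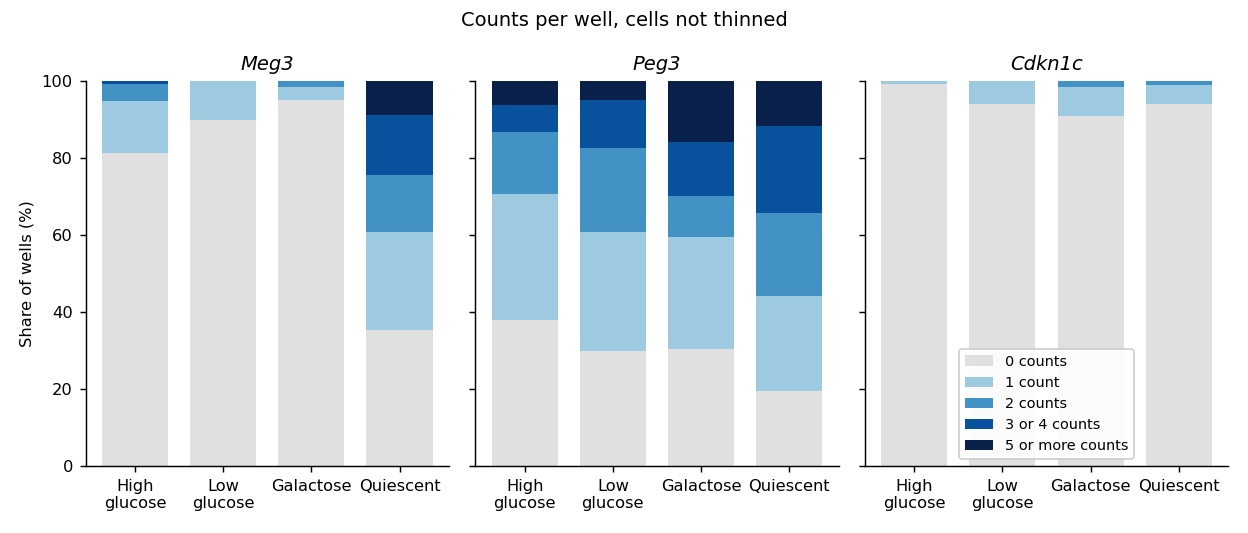
Share of wells (%) with 0, 1, 2, 3 or 4, and 5 or more counts of each gene in high glucose, low glucose, galactose and quiescent wells, before thinning. Wells without Meg3 make up over 80% of each culture, Peg3 is found in most wells of all 4 conditions, and Cdkn1c is missing from over 90% of wells in each.

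This spread was measured as the variance of counts over their mean, beside the 100 genes nearest in mean. After reduction to 1000 counts, Peg3 had a value of 1.53 in high glucose, where its neighbours had a median of 1.05 and 99 of the 100 lay lower. It had 1.28 in galactose with 99 of 100 lower, 1.03 in low glucose with 63 lower, and 1.21 in quiescent cells with 71 lower. Without thinning the low glucose value was 2.77, with 97 of 100 neighbours lower, so the place of Peg3 in low glucose depended on thinning. In high glucose and galactose it was among the most uneven genes of its level either way, with 99 and 100 of 100 neighbours lower without thinning. Meg3 had 1.43 in quiescent cells, with 90 of 100 neighbours lower. Each value describes wells of 1 plate and is not tested.

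Meg3 and Peg3 often occurred in the same quiescent well. Both were found in 56 wells, Meg3 alone in 10, Peg3 alone in 26 and neither in 10. Peg3 was found in 84.8% of wells with Meg3 and in 72.2% of those without it. At 1000 counts per well the shares were 52.6% and 50.9%, and Spearman's correlation of the counts over the 102 wells was 0.040, so presence of 1 gene said little about the other. All 6 quiescent wells with Cdkn1c also had Peg3, and 5 of them had Meg3. In galactose, the most Meg3 in a well was 2 counts, found in 2 wells, and the same held for Cdkn1c. A well of 4891 counts was among both, with 2 Meg3 and 2 Cdkn1c counts.

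Wells that carried markers of other cell types were left out to see what remained. Without the wells that had 3 or more markers of 1 other cell type, 104 high glucose and 87 quiescent wells were left, and the high glucose over quiescent ratios were 0.0589 for Meg3 and 0.217 for Peg3. Without any well that had a fibro-adipogenic marker other than Col3a1, 100 high glucose and 52 quiescent wells were left, and the ratios were 0.0528 (0.0316 to 0.0851) for Meg3, 0.241 (0.185 to 0.316) for Peg3 and 0.0430 (0.000873 to 0.435) for Cdkn1c. All of these lay within the intervals over all wells. Without every well that had any marker of another cell type, 5 high glucose and 9 quiescent wells were left, and Meg3 had 2 counts in high glucose and 6 in quiescent cells. That ratio was 0.233 (0.0230 to 1.30), outside the interval over all wells and not called, and the Peg3 ratio was also 0.233 (0.0836 to 0.568).

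The neighbours of Meg3 in its imprinted cluster had few counts. In high glucose over quiescent cells, the 2 that could be compared, Rian and Dlk1, were called lower, but both reached the minimum only through their quiescent level, so their ratios were bound to be low. Rian, a maternally read noncoding RNA, had 3 counts in high glucose, 1 in low glucose, 1 in galactose and 10 in quiescent cells, with a high glucose ratio of 0.0960 (0.0170 to 0.373). Dlk1, a paternally read membrane protein of the Notch ligand type, had 3, 0, 5 and 7 counts in the same order, with a ratio of 0.137 (0.0229 to 0.601). Begain had at most 8 counts in a pool and was not compared. Rtl1, Mirg and Dio3 of the cluster were not analysed here. None of the 3 analysed besides Meg3 had more than 10 counts in a pool. In high glucose over quiescent cells neither Rian nor Dlk1 was called per spike-in count. In low glucose and in galactose over quiescent cells both were also called lower, per spike-in count too, with the same limit on their level.

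In the Peg3 domain, Zim1, a maternally read zinc finger gene, had 13.5 CPM in high glucose, 14.4 in low glucose, 15.7 in galactose and 81.0 in quiescent cells. Its high glucose ratio was 0.167 (0.0757 to 0.350), called lower, and its spike-in ratio of 0.512 (0.232 to 1.07) was not. Usp29, which starts beside Peg3 on the other strand, had 1 count in quiescent cells and none in the cultures.

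Of the genes analysed around Cdkn1c, Phlda2, Ascl2 and Kcnq1ot1 were also barely detected, with at most 4 counts in a pool. The others were compared because they averaged 10 CPM or more. Of 4 genes of the Cdkn1c-Kcnq1 and H19-Igf2 domains that could be compared, none was called lower and 1 higher in high glucose. Over all genes, 13.4% were called lower and 21.7% higher, so 4 genes do not set this domain apart. That gene, Nap1l4, a histone chaperone, had 72.1 CPM in high glucose, 77.3 in low glucose, 68.3 in galactose and 10.6 in quiescent cells, where it had 3 counts, and a ratio of 6.83 (2.23 to 34.0). Cd81, a tetraspanin of the cell surface, had 269 CPM in high glucose and 257 in quiescent cells, a ratio of 1.05 (0.803 to 1.38). Osbpl5, a lipid transfer protein, had 73.2 CPM in high glucose and 84.5 in quiescent cells and was not called. Kcnq1ot1, the noncoding RNA that silences genes of this domain on the paternal copy, had no count in high glucose or quiescent cells. H19, Igf2 and Kcnq1 were not analysed here.

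Of the other imprinted genes, 17 of the 29 analysed could be compared in high glucose over quiescent cells, with 8 called lower, none higher and 9 neither, beside 13.4% of all genes called lower and 21.7% higher. Their median log2 ratio was -0.82, beside 0.34 over all 8882 genes. Whether the listed genes are imprinted in muscle stem cells was not tested. Calcr, the calcitonin receptor of quiescent muscle stem cells and also on the marker list, had 4.51 CPM in high glucose, 1.73 in low glucose, 0.491 in galactose and 56.3 in quiescent cells, a high glucose ratio of 0.080 (0.0195 to 0.248). Tfpi2, a secreted protease inhibitor, had 16.9, 12.7, 6.88 and 109.1 CPM in the same order, a ratio of 0.155 (0.0777 to 0.296). Grb10, an adaptor that restrains insulin receptor signalling, had 148 CPM in high glucose and 260.5 in quiescent cells, a ratio of 0.567 (0.423 to 0.764). The others called lower were Mest, Plagl1, Peg10, Sgce and Nap1l5. Of the 8 genes, Calcr, Mest and Nap1l5 were under 10 CPM in high glucose and reached the minimum only through their quiescent level. H13, a signal peptide peptidase, and Ube3a, a ubiquitin ligase imprinted in neurons, were not called, at 1.25 (0.869 to 1.85) and 1.12 (0.796 to 1.62).

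Per spike-in count, 2 of these 17 genes were called lower, Calcr and Tfpi2, and 7 higher, beside 2.54% of all genes called lower and 77.6% higher. Their median log2 ratio was 0.80 beside 1.94 over all genes. Changing the scaling shifts all genes by the same factor, so the distance between these medians is not a second result. In galactose over low glucose, none of the 16 that could be compared was called, with a median log2 ratio of -0.05 beside 0.01 over all genes. Against quiescent cells, 7 of 16 were called lower in low glucose and 8 of 16 in galactose, beside 16% and 16.2% of all genes. In each, 2 were called higher, beside 25.5% and 26.2% of all genes. Per spike-in count, 4 were called lower and 7 higher in each, beside 5.53% of all genes called lower in either and 73.1% and 74.7% called higher. Under both scalings the lower calls included Mest and Calcr in both cultures and Tfpi2 in galactose, all under 10 CPM there. These reached the minimum only through their quiescent level.

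**Figure D4:**
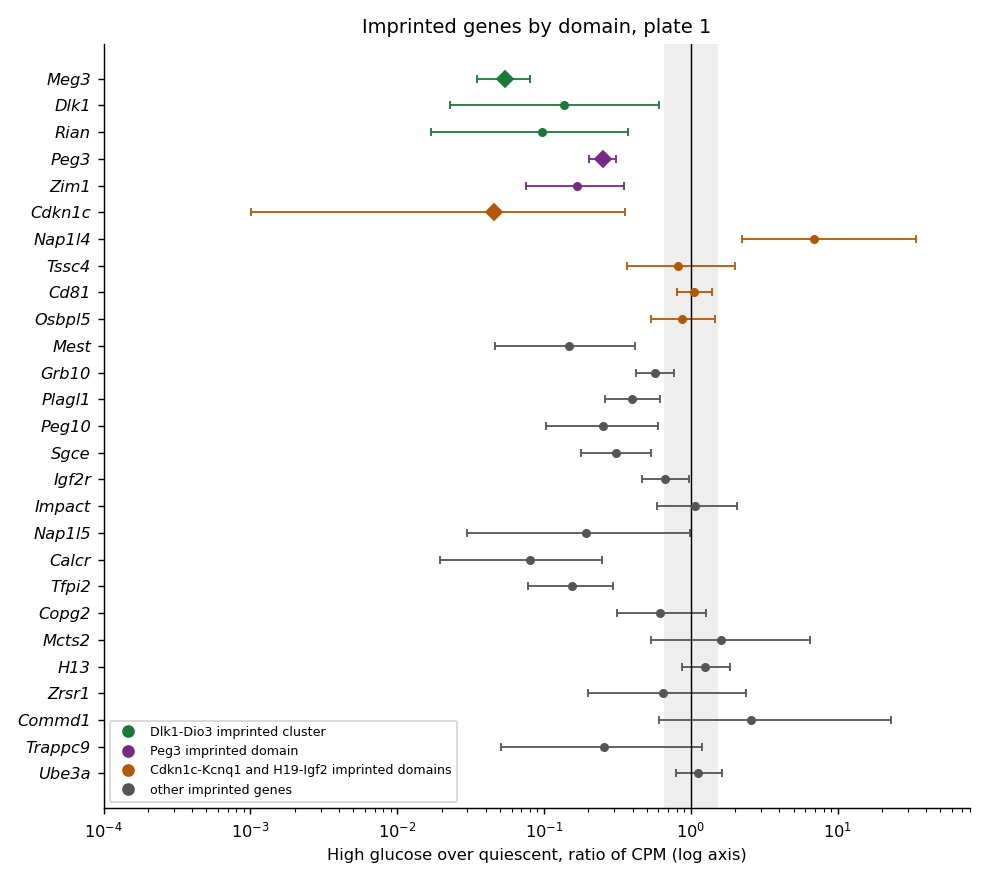
High glucose over quiescent ratio of CPM (log axis) for each gene of the imprinted lists that could be compared on plate 1, coloured by domain. Diamonds are Meg3, Peg3 and Cdkn1c, circles the other genes, bars exact 95% intervals of counting error, and the grey band ratios under 1.5-fold either way. The compared genes of the Dlk1-Dio3 cluster and the Peg3 domain all lie left of the band. The 4 compared neighbours of Cdkn1c lie in it or, for Nap1l4, to the right. Few genes per domain were compared, and over all genes 13.4% were called lower and 21.7% higher.

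Of 6 factors of imprint maintenance and DNA methylation that could be compared in high glucose over quiescent cells, 1 was called lower, none higher and 5 neither, beside 13.4% of all genes called lower and 21.7% higher, with a median log2 ratio of 0.01. The gene called was Tet2, a dioxygenase that oxidises methylated cytosine. Tet2 had 28.2 CPM in high glucose, 16.1 in low glucose, 14.2 in galactose and 183 in quiescent cells, a high glucose ratio of 0.154 (0.0915 to 0.253). It was also called lower per spike-in count, at 0.472 (0.281 to 0.775). Trim28, the corepressor that imprint-guarding zinc finger proteins recruit, had 705 CPM in high glucose and 778 in quiescent cells, a ratio of 0.907 (0.777 to 1.06). Dnmt1, the maintenance methyltransferase, had 29.3 CPM in high glucose and 14.1 in quiescent cells, a ratio of 2.08 (0.722 to 8.20), and Yy1, which binds at the Peg3 domain, a ratio of 1.37 (0.968 to 1.97). Zfp57 had no count in high glucose or quiescent cells.

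The cell cycle inhibitors related to Cdkn1c gave a mixed account. Of 9 CDK inhibitors and their partners in G1 compared in high glucose over quiescent cells, 4 were called lower, 1 higher and 4 neither, beside 13.4% of all genes called lower and 21.7% higher, with a median log2 ratio of -0.13. Cdkn1a, which encodes the inhibitor p21, was not called, with 1983 CPM in high glucose and 2168 in quiescent cells (ratio 0.915, interval 0.834 to 1.00). Those called lower were Cdkn1b, Cdkn2c, Ccnd2 and Ccnd3. Ccnd2, a D-type cyclin, had 3.38 CPM in high glucose and 28.2 in quiescent cells, a ratio of 0.120 (0.0205 to 0.50), and reached the minimum only through its quiescent level. Cdk6, a kinase that D-type cyclins activate, was called higher, with 63.1 CPM in high glucose and 14.1 in quiescent cells, a ratio of 4.48 (1.66 to 17.0). Ccnd1 had a ratio of 1.39 (0.849 to 2.39) and was not called. In galactose over low glucose, where 1.25% of all genes were called lower, 1 of 8 was called, Cdkn2c, an inhibitor of Cdk4 and Cdk6, with 27.0 CPM in galactose and 42.1 in low glucose, a ratio of 0.642 (0.444 to 0.923).

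Genes whose pattern was most like each of the 3 were sought over the 24 plate-row pools, by Pearson's correlation of log2(CPM + 10) among genes with a mean of at least 50 CPM. For Meg3 they included Apoe (0.979), Stat3 (0.979), Flnc (0.974) and Cebpb (0.973). Apoe, which encodes apolipoprotein E, had 57.5 CPM in high glucose, 12.1 in low glucose, 12.3 in galactose and 591 in quiescent cells. For Peg3 they were Cfhr2 (0.934), Clk1 (0.933), Maff (0.932), Tcp11l2 (0.929) and Trib1 (0.924). For Cdkn1c they were Mbnl2 (0.874), Hnrnpa2b1 (0.804), App (0.794), Ncoa1 (0.790) and Sec24d (0.781), against a gene at 0 in 8 of the 24 rows. Meg3 correlated with Peg3 at 0.881 and with Cdkn1c at 0.586. The 6 rows of a condition share a library and its depth, so these values mostly restate the order of the 4 conditions.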

How the data were processed

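RNA of single mouse muscle stem cells was measured in 4 conditions on 2 plates. The authors deposited raw, unnormalized counts of each gene in each well. These sources name no aligner, counter, genome build or collapsing by molecular tag, and edgeR is named in the submitters' processing notes without version or role. Each of the 457 wells took its condition from the deposited well sheet. Wells were kept at 500 gene counts and 250 genes or more, which left 456 of them with 868 to 44097 gene counts each. Of 21216 identifiers, 99.6% received a symbol from GENCODE M21. Spike-ins stayed out of the totals, no doublet caller was run, 200 well barcodes were used on both plates, which were separate libraries, and no column belonged to another series.

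Counts were summed per condition and scaled to CPM, and medians of log2 ratios over many genes used CPM + 1. Intervals are exact Poisson for a level, exact conditional for a ratio and exact binomial for a share, at 95%. Only the ratio intervals were tried on simulated data, at a mean of at least 50 CPM in the comparisons within a plate. The simulated counts held only the counting error that these intervals assume, so other spread was not covered. Molecules amplified without a stated tag collapse are not independent, so intervals cover counting error only. Thinned shares are means over all possible draws to 1000 counts, with the binomial interval taken at that mean, and the spread between wells is a mean over 20 draws. The limit for a share of 0 is 3 counts of the total.

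The 3 genes and the gene lists were chosen with earlier results of these data known. Besides the 3, named genes were the 3 of each list with most counts, the 2 called genes per list and within-plate comparison whose interval lay farthest from 1, and the 5 genes of most like pattern, of which 1 is not reported here. Genes named outside that rule, such as Begain and Kcnq1ot1, were added after their values were seen. Alternatives covered scaling (spike-ins, TMM from edgeR 4.0.16, median of ratios from DESeq2 1.42.0, equal weight per cell, no mitochondrial genes), well filters, thinning, the call rule, the expression minimum, tag saturation and each plate row left out. No test or count model was run. Tools were Python 3.11.15, numpy 2.4.6, pandas 2.3.3, scipy 1.17.1 and R 4.3.3.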

Additional observations from a re-analysis of the deposited data

How the results depend on the processing

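No paired analysis was possible because each plate was 1 library that held 2 conditions, with no replicate of either. Of 552 values under alternative settings, 489 stayed within the interval or 1.5-fold range of the value reported, 63 did not, and none that was called changed direction. Scaled by spike-ins, the Meg3 ratios over quiescent for high glucose, low glucose and galactose were 0.166, 0.0293 and 0.0172, and those of Peg3 were 0.768, 0.370 and 0.482. With equal weight per cell the high glucose over quiescent ratios were 0.0812 for Meg3 and 0.314 for Peg3, and with cells thinned to 1000 counts 0.0819 and 0.317. Galactose over high glucose for Peg3 was 0.554 and 0.549 under these same settings, below its interval of 0.599 to 0.886. No interval was taken under these settings, so no call could be made. The cause was not tested.

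Leaving out each plate row in turn gave high glucose over quiescent ratios of 0.0423 to 0.0598 for Meg3 and 0.202 to 0.281 for Peg3. For Peg3 it gave 0.513 to 0.714 in low glucose over high glucose and 0.618 to 0.903 in galactose over high glucose. Leaving out every well with any marker of another cell type, chosen after seeing the data, kept 5 high glucose, 34 low glucose, 27 galactose and 9 quiescent wells. Meg3 over quiescent was then 0.233 (no longer called), 0.0251 and 0.0377 for high glucose, low glucose and galactose, and Peg3 was 0.101 in galactose over quiescent, 0.432 in galactose over high glucose and 0.802 in galactose over low glucose. Leaving out wells with a fibro-adipogenic marker other than Col3a1, also chosen after seeing the data, left all 18 ratios of the 3 genes within their intervals. Cdkn1c had no high glucose count, and so no ratio, when that filter on any marker was used, when the well with the highest count was left out, or without plate row L of high glucose.

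In high glucose over quiescent, with a minimum mean of 50 CPM, 0 genes were called lower in the Dlk1-Dio3 cluster and 0 in the Peg3 domain. There were 4 lower calls among other imprinted genes and 0 among CDK inhibitors, with 0 higher calls around Cdkn1c and 0 among CDK inhibitors. Over all genes at that minimum, 18.2% were called lower and 28.7% higher. Wherever 0 is given, each gene called at 10 CPM averaged under 50 CPM and was not compared, so the 0 was fixed by the minimum. Per spike-in count the lower calls were 0, 0, 2 and 0 for the same lists, beside 2.54% of all genes. The higher calls were 4 of 4 genes around Cdkn1c and 7 of 17 other imprinted genes. They were 4 of 6 imprint factors and 5 of 9 CDK inhibitors and partners, beside 77.6% of all genes called higher. A 2-fold rule with no interval called 1 other imprinted gene and 1 imprint factor higher, beside 27.1% of all genes. In galactose over low glucose, 1 other imprinted gene was called higher per spike-in count, beside 2.05% of all genes. There, 0 CDK inhibitors were called lower at 50 CPM and 0 at 2-fold. Cdkn2c, the gene called at 10 CPM, averaged under 50 CPM, so the first of these was fixed by the minimum.

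Shares of wells moved with depth. Without thinning Meg3 was found in 18.6% of high glucose, 10% of low glucose, 4.96% of galactose and 64.7% of quiescent wells, and Cdkn1c in 5.83% of low glucose and 9.09% of galactose wells. Meg3 in quiescent wells was at 23.8% with 500 counts and 57.4% with 2000. Peg3 at 500 counts, at 2000 counts and without thinning was at 10.4, 29.6 and 61.9% in high glucose, 5.92, 21.2 and 70% in low glucose, 6.34, 21.3 and 69.4% in galactose, and 31.6, 70.6 and 80.4% in quiescent wells. With a pseudocount of 50 CPM, 1 of the 5 genes most like Meg3, 3 of those most like Peg3 and 3 of those most like Cdkn1c were the same.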
